A study of Homo sapiens with 12 samples.

Results

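The regions described here were the H3K27me3 peaks that lie at gene promoters in vehicle-treated T24 cells. T24 is an established human bladder cancer cell line, and H3K27me3 is trimethylation of lysine 27 on histone H3, measured by ChIP-seq. The members were all peaks of the deposited vehicle list on chromosomes 1 to 22 and X whose annotation class was a promoter, which made 2196 of 212277 vehicle peaks (1.03%). They carried 2097 gene symbols and lay in 2172 of the 273664 consensus intervals over which the authors counted fragments, and these 2172 are called promoter intervals below. The 4 ChIP libraries came from cells given 5 µM GSK-126 for 72 h, 5 µM fenretinide for 72 h, both compounds at 5 µM each for 72 h (the combination), or DMSO vehicle, for which the labels give no time, and all chromatin was fixed with 1% formaldehyde for 10 min. GSK-126 inhibits the histone methyltransferase EZH2, and fenretinide is a synthetic retinoid. The series title places the work in the question of how retinoids and EZH2 inhibitors act together on bladder cancer cells. Each condition had 1 library, so every ratio below compares 2 libraries without a replicate check, and no p-value was computed. The 4 expression and 4 input libraries of the series were not analysed here.

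H3K27me3 is placed by the Polycomb repressive complex 2, in which EZH2 is the catalytic subunit, and it marks genes that are kept silent. In mammals the mark gathers at CpG-rich promoters of developmental regulators, and it also forms broad domains that extend over whole silent genes and the space between them. RARB, the retinoic acid receptor beta gene, is a textbook target of retinoids: its promoter holds a pair of receptor half-sites spaced by 5 bases (the DR5 retinoic acid response element), and it is often silenced in carcinomas.

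The sequences shown are RefSeq promoter windows on GRCh38.p14, from 250 bases before to 50 bases after the annotated start, each overlapped by a vehicle promoter peak of that gene. RARB (chr3:25428013-25428312, plus strand) is shown because the peak at this gene covers its retinoid response element. In this window the capitals mark the DR5 match of 17 bases, bases 198 to 214 of the window, which ends 36 bases before the start. The motif, searched on both strands, occurred in 31 of 34961 RefSeq promoter windows (0.0887%), and among the 859 members whose peak overlapped a window of its gene it occurred in 2, RARB and FSCN2.
RARB: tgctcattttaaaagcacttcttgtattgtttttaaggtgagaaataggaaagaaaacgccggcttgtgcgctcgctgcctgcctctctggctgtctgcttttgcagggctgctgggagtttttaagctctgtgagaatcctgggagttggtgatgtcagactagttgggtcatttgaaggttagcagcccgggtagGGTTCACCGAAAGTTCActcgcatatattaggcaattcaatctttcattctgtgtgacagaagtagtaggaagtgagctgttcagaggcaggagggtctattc
The next windows belong to promoters with some of the largest falls with GSK-126, and here capitals mark CG dinucleotides. PDE4A (chr19:10420288-10420587, plus strand) held 40 CG, and 7.63% of all windows held as many. CNFN (chr19:42390248-42390547, minus strand) held 16, as many as 47.6% of windows. FLRT1 (chr11:64035681-64035980, plus strand) held 52, as many as 0.784% of windows.
PDE4A: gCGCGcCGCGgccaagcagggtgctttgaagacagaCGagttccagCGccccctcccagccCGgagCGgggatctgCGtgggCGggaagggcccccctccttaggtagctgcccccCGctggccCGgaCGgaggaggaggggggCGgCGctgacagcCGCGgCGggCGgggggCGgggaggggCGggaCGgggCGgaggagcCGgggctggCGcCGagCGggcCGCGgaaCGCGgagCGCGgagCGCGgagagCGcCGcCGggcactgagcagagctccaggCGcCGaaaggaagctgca
CNFN: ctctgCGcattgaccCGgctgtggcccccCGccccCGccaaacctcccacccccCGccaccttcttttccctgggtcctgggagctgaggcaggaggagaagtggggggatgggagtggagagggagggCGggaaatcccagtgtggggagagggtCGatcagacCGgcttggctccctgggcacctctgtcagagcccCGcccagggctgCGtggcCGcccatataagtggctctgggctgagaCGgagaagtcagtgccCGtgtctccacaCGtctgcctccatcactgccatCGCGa
FLRT1: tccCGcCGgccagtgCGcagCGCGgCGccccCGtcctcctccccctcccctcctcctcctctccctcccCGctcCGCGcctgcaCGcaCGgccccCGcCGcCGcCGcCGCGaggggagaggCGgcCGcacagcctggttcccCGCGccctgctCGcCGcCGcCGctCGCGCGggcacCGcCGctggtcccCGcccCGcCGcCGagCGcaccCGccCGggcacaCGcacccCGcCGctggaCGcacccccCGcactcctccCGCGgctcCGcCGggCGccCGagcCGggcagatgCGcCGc
The last windows belong to promoters with some of the largest rises with GSK-126. EPHA6 (chr3:96814344-96814643, plus strand) held 30 CG, as many as 22.5% of windows, and KCNN2 (chr5:114361820-114362119, plus strand) held 22, as many as 37.8%.
EPHA6: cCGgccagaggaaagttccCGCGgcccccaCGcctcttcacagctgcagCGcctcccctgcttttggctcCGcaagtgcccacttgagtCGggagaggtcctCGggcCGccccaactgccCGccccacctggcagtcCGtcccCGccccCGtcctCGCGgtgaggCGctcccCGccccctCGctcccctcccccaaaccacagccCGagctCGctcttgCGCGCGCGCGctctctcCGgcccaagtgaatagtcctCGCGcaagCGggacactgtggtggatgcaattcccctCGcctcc
KCNN2: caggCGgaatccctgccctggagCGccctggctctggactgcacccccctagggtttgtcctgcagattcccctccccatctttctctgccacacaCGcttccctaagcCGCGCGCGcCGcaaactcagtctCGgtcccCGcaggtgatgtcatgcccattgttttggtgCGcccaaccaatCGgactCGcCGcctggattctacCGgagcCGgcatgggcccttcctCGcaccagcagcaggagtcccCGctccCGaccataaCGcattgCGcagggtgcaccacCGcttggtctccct
CG-rich windows thus stood on both the falling and the rising side.

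The median width of the vehicle promoter peaks was 1.98 kb, with quartiles of 0.817 and 5.15 kb and a range from 259 bases to 130 kb, against medians of 1.85 kb for exon, 1.43 kb for transcript-end, 1.47 kb for intron and 1.44 kb for intergenic vehicle peaks. The deposited peak score, whose scale is not stated, had a median of 20 and a maximum of 164. Of the 1618 peaks whose promoter gene was also the gene with the nearest start site, within 1100 bases, 1436 had their centre upstream of the start, and the median centre lay at -465 bases. The promoter class that chose the members is itself set by position relative to a start site, so this placement is not a separate result. For 250 peaks the promoter gene differed from the deposited nearest gene. The promoter intervals were wider than the peaks, with a median of 5.46 kb, since an interval spans the peaks of all 4 libraries. Promoter peaks covered at least 50% of the interval in 1262 of the 2172, and 271 intervals were over 30 kb wide. Counts in many intervals, not only in these wide ones, therefore also come from sequence beyond the promoter peak. By biotype in RefSeq, 1388 of the genes were protein-coding, 209 long non-coding RNA genes and 81 microRNA genes, and 336 had no match.

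The libraries held 16156194 (GSK-126), 18928836 (fenretinide), 15812933 (combination) and 17133107 (vehicle) fragments in all intervals. Promoter intervals took 2.98%, 3.11%, 2.89% and 3.36% of these in the same order. Cell identity was not checked from RNA, since the expression libraries of the series were not analysed here. None of the 9 luminal, 5 basal and 5 mesenchymal markers looked up had a vehicle promoter peak, while 1 of 5 blood markers (CD79A) and 1 of 4 neural markers (SYN1) had one. The share of all genes with such a peak is not given here, so these counts name no cell type.

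GSK-126 against vehicle asked what the EZH2 inhibitor did to the mark at these promoters. The ratio was below 1 in 76.7% of the measured promoter intervals, and the difference was deepest in narrow ones. Width depends on the peaks of all 4 libraries, so this grouping is not independent of the treated signal. Over intervals up to 5 kb wide, the median density, in fragments per kb and per 10000000 fragments of the library (scaled fragments per kb), was 3.09 in the GSK-126 library, 5.0 in the fenretinide library, 3.28 in the combination library and 7.79 in the vehicle library. Over the 271 intervals wider than 30 kb the medians were 8.3, 9.79, 8.53 and 10.3 in the same order of libraries. The vehicle library was the highest in each width group, and the GSK-126 and combination libraries lay close together below the fenretinide library.

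**Figure D1:**
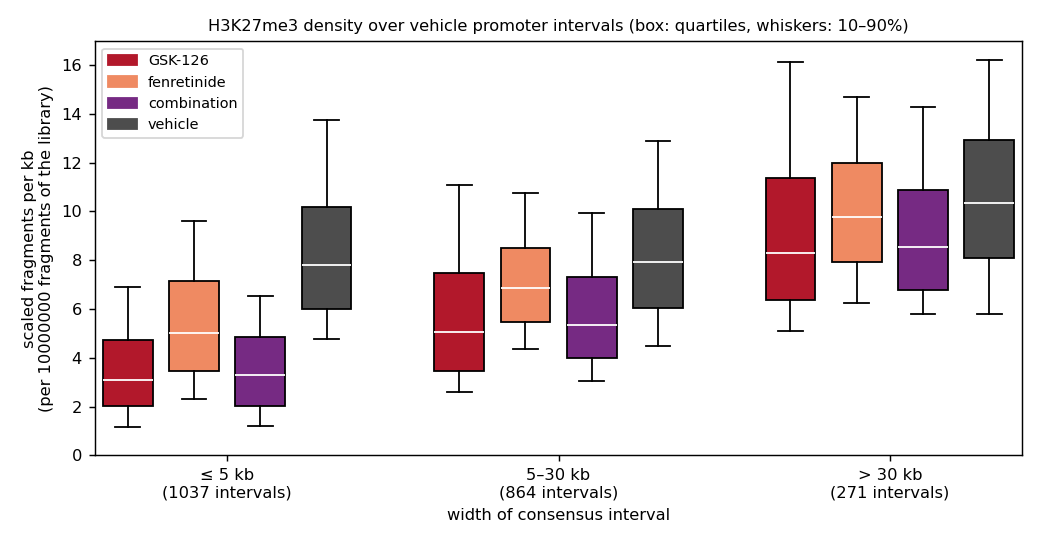
H3K27me3 density (scaled fragments per kb, linear axis) over vehicle promoter intervals in 3 width groups, for the GSK-126, fenretinide, combination and vehicle libraries from left to right. Boxes span the quartiles over intervals with the median as a white line, and whiskers span 10% to 90% of intervals; in intervals up to 5 kb the GSK-126 median was 3.09 and the vehicle median 7.79.

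Calls rest on the ratio of library shares. Higher means 2 or above and lower 0.5 or below, with a 95% exact counting interval (Clopper-Pearson, counting error only) that leaves out 1, and at least 20 fragments in the pair of libraries. With GSK-126, 1819 of the 2172 promoter intervals held enough fragments; 696 of them (38.3%) were called lower and 107 (5.88%) higher, with a median log2 ratio of -0.77. Over all consensus intervals, 21.6% were called lower and 25.9% higher, with a median of -0.0055. Members were chosen as peaks of the vehicle library, which by itself favours falls, so vehicle peaks of other classes are the closer comparison. Of the measured intervals, 52.8% were called lower at exons (median log2 ratio -1.1), 49.1% at transcript ends (-1.04), 32.5% in introns (-0.58) and 26.3% between genes (-0.35). Promoters therefore stood between exons and transcript ends on one side and introns and intergenic sequence on the other. Taken from the promoter peaks of the GSK-126 list instead, which favours rises, 31.0% of intervals were lower and 10.8% higher, with a median of -0.55.

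The promoter ratios differed with the width of the interval. In intervals up to 2 kb, from 2 to 5 kb, from 5 to 10 kb, from 10 to 30 kb and over 30 kb, the median log2 ratio with GSK-126 at promoters was -1.07, -1.08, -0.92, -0.54 and -0.34. At exons it stayed between -1.33 and -0.998 over the same widths, while between genes it was -0.87 in the narrowest and 0.05 in those of 10 to 30 kb. Promoters thus lay near exons from 2 to 10 kb and moved towards the intergenic values beyond it. Summed over all members, the ratio of library shares was 0.887 (0.883 to 0.89), and it was 0.431 (0.414 to 0.448) in the narrowest group and 0.964 (0.959 to 0.968) in the widest, which holds 20.5 of the 33.5 Mb. Narrow intervals hold few fragments, and 263 of the 616 up to 2 kb reached the count minimum. An interval stays narrow only where no treated library adds a wider peak, so the width groups are not independent of the ratios.

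**Figure D2:**
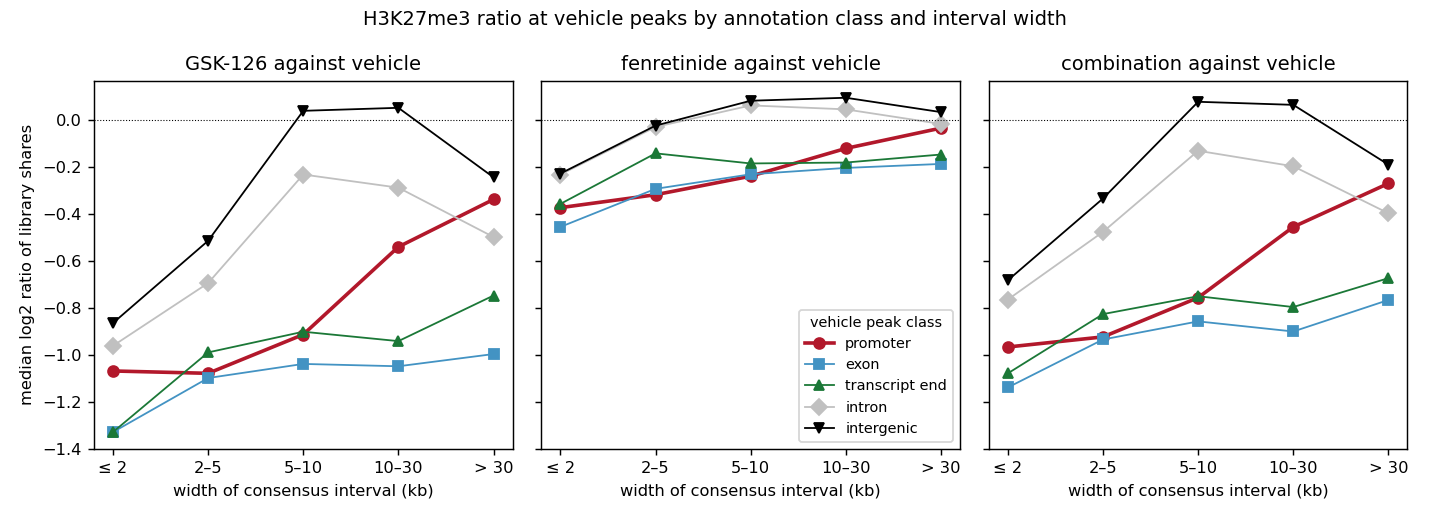
Median log2 ratio of library shares (vertical axis) against the width of the consensus interval in kb (horizontal axis) for each treated library against vehicle; lines join vehicle peaks of 1 annotation class, with promoters in thick red. With GSK-126 the promoter median was -1.07 in the narrowest and -0.34 in the widest intervals, and the fenretinide promoter medians ran between -0.38 and -0.04.

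A fall here is a smaller share of the library, since the labels mention no spike-in. Scaling the libraries on the 25% of intervals with the lowest density (background scaling) moves every log2 ratio to vehicle: the shift was -0.77 with GSK-126, -0.14 with fenretinide and -0.81 with both compounds. Under it 68.4% of measured promoter intervals were lower and 1.98% higher with GSK-126. Higher calls with GSK-126 went from 107 to 36. The promoters named as higher below had ratios of at least 2.07. Any ratio of 2 or above stays above 1 after shifts of this size, so that follows from the rule and is no separate check.

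Of the 2196 vehicle promoter peaks, 1191 (54.2%, counting interval 52.1 to 56.3) overlapped a GSK-126 peak by at least 1 base, 1648 (75%) a fenretinide peak and 1413 (64.3%) a combination peak. The shares with a GSK-126, fenretinide and combination partner were 49.3%, 73.7% and 60.5% for exon, 48%, 74.4% and 61.4% for transcript-end, 58.5%, 79.3% and 70.1% for intron and 63.8%, 79.2% and 74.3% for intergenic vehicle peaks, so promoter peaks lay between these classes. Peaks with a GSK-126 partner had a median width of 3.87 kb and a median score of 23, and the 1005 without one had 1.11 kb and 17. At widths up to 2 kb, 34.4% of promoter peaks had a GSK-126 partner, while at 10 to 30 kb 98.2% had one. A wide peak meets a 1-base overlap more easily. With an overlap of at least 50% of the vehicle peak, the shares at these widths were 26.7% and 41%. All 3 treated lists shared 999 of the peaks (45.5%), 319 (14.5%) overlapped a fenretinide peak only, and 362 (16.5%) overlapped none. By gene, the promoter list of GSK-126 held 1954 genes, of which 485 were among the 2097 of vehicle (24.8% of the GSK-126 list and 23.1% of the vehicle list); the fenretinide list shared 686 of its 2091 genes (32.8% and 32.7%). A peak list is set by a calling threshold in each library, so a missing peak is not an absent mark.

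The promoter with the densest mark in the vehicle library was also called lower in all 3 treated libraries. Its density and its ratios both use the vehicle count, so they are not independent. PDE4A, a phosphodiesterase that breaks down cAMP, held 66 fragments in the GSK-126 library, 193 in the fenretinide library, 80 in the combination library and 458 in the vehicle library over 6.49 kb around chr19:10417104-10423473. The vehicle count was the highest of the 4 by far, and the ratios to vehicle were 0.153 (0.116 to 0.198) for GSK-126, 0.381 (0.321 to 0.452) for fenretinide and 0.189 (0.147 to 0.24) for the combination. CNFN, which encodes cornifelin of the cornified envelope, held 21, 99, 32 and 167 fragments in the same order, a ratio of 0.133 (0.0804 to 0.211) for GSK-126. FLRT1, a leucine-rich repeat membrane protein, held 14, 64, 17 and 102, a ratio of 0.146 (0.0769 to 0.256). SLC34A1, the sodium-phosphate cotransporter of the kidney, held 44, 201, 48 and 242, a ratio of 0.193 (0.137 to 0.267). In each of these the GSK-126 and combination libraries were low, the vehicle library was the highest and the fenretinide library lay between. FXYD1, a regulator of the sodium pump, CSDC2, an RNA-binding protein, and XKR5 had the same order, with GSK-126 ratios of 0.172, 0.129 and 0.194. PMCHL2, a non-coding relative of the melanin-concentrating hormone gene, differed in the combination: it held 11 fragments with GSK-126, 65 with fenretinide, 41 with the combination and 112 with vehicle.

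The other promoters that were densest in the vehicle library, with 42.7 to 60.3 vehicle fragments per kb, behaved unequally. CCDC64B held 110 fragments with GSK-126, 342 with fenretinide, 125 with the combination and 586 with vehicle, a GSK-126 ratio of 0.199 (0.161 to 0.244). TNNT3, the troponin T gene of fast skeletal muscle, held 640, 1854, 725 and 2482 in the same order, a ratio of 0.273 (0.25 to 0.298). MUC20, a mucin gene in a repeated region, and FAM194B had GSK-126 ratios of 0.315 and 0.409 and fenretinide ratios of 0.845 and 0.852. VSX1, a homeobox gene of the retina, and TMEM247 were reduced less than 2-fold with GSK-126 (0.658 and 0.619). REXO1L1P, a pseudogene of a repeated family whose copies reads cannot be told between, held 3940, 1969, 3012 and 1754 fragments, a ratio of 2.38. A dense mark with vehicle thus went with GSK-126 ratios from 0.153 at PDE4A to 2.38.

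Of the 8 named rises, 7 had fewer vehicle fragments per kb than the median promoter interval (13.9). They were picked by their ratio to vehicle, so a low vehicle density follows in part from that choice. The vehicle-called peak at PDE3A, another cAMP phosphodiesterase, lay in an interval that held 258 fragments in the GSK-126 library, 66 in the fenretinide library, 206 in the combination library and 44 in the vehicle library, a ratio of 6.22 (4.5 to 8.77) for GSK-126. EPHA6, an ephrin receptor, held 170, 32, 99 and 42 in the same order, a ratio of 4.29 (3.05 to 6.17). KCNN2, a calcium-activated potassium channel, held 323, 78, 243 and 121, a ratio of 2.83 (2.29 to 3.52). LINGO2, a leucine-rich repeat protein of neurons, held 152, 29, 110 and 45, a ratio of 3.58 (2.55 to 5.11). At EPHA6, KCNN2 and LINGO2 the fenretinide library was the lowest of the 4, with counting intervals against vehicle that excluded 1 at KCNN2 (0.433 to 0.782) and LINGO2 (0.353 to 0.951) and included it at EPHA6 (0.421 to 1.12). RALYL, MBOAT4, which encodes the enzyme that acylates ghrelin, and the olfactory receptor pseudogene OR7E156P were also called higher, with ratios of 4.33, 3.89 and 4.62. These counts cover whole intervals. The peak spanned chr12:20368259-20368738 of the 5.91 kb at PDE3A, but chr5:114357772-114365167 of the 7.84 kb at KCNN2. Where promoter peaks cover at least 50% of the interval, 8 of 924 measured intervals were called higher (0.866%), against 107 of 1819 promoter intervals (5.88%). The highest ratio, 38.3 (24.9 to 62.3), was at RNA5S6, with 759, 40, 351 and 21 fragments, but this is a copy of the repeated 5S ribosomal RNA genes, among which reads cannot be placed with certainty.

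**Figure D3:**
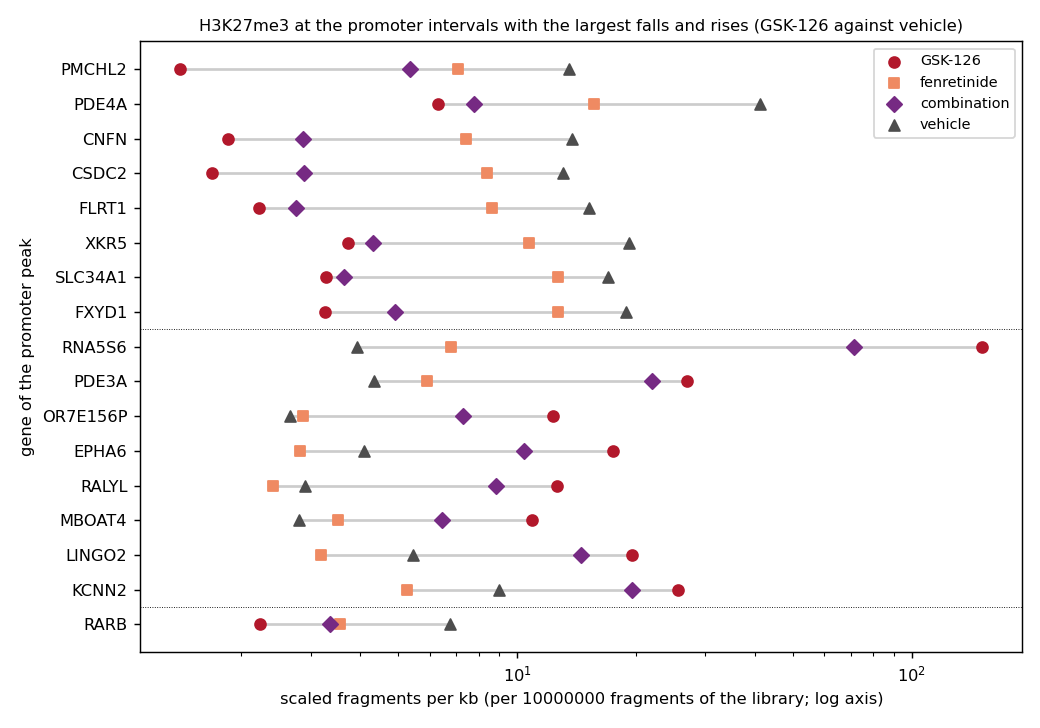
H3K27me3 density (scaled fragments per kb, log axis) in the 4 libraries at the promoter intervals with the 8 largest falls (top block) and 8 largest rises (middle block) for GSK-126 against vehicle, and at RARB (bottom). Each point is 1 library; in the top block the vehicle library lies rightmost, and in the middle block the GSK-126 library does.

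Zinc-finger genes lay in part of the wide intervals that rose. Of the 27 promoter intervals over 30 kb called higher with GSK-126, 11 (40.7%) overlapped at least 1 RefSeq gene whose symbol starts with ZNF, against none of the 44 called lower, 4 of the 200 in between (2%) and 15 of all 271 (5.54%). Of the 80 called higher at 30 kb or less, 0 overlapped such a gene. This grouping was made after the values were seen. ZNF578 held 4268 fragments with GSK-126, 852 with fenretinide, 3210 with the combination and 646 with vehicle, a GSK-126 ratio of 7.01 (6.45 to 7.62). The interval of ZNF582 and SMIM17, 438 kb wide with 12 ZNF genes, held 11421, 3872, 9243 and 2853 in the same order, a ratio of 4.25 (4.07 to 4.42). The highest GSK-126 ratio among the neuronal genes, 4.91 at the glutamate receptor gene GRM6, also came from such an interval, 274 kb wide with 5 ZNF genes. Of the zinc-finger genes with a vehicle promoter peak of their own, 5 of 8 measured intervals were called higher with GSK-126 and 1 lower. These are 62.5% and 12.5%, against 5.88% and 38.3% of all promoter intervals and 9.96% and 16.2% of those over 30 kb. The interval of ZNF582 enters both this count and that of the wide intervals, so the counts are not independent. The widest interval of all, 491 kb at the homeobox gene ISX, differed little, with 9449, 9249, 8825 and 8273 fragments and a GSK-126 ratio of 1.21 (1.18 to 1.25). Among the other widest intervals, LOC101927435 (352 kb) held 5304, 5970, 5074 and 5514 fragments, a GSK-126 ratio of 1.02. IGSF21 (385 kb) held 3987, 8421, 4431 and 8289 fragments and LOC102724237 (306 kb) 2519, 6432, 2934 and 6556, with GSK-126 ratios of 0.51 and 0.407. LOC101927209, named after its values were seen, held 8938, 739, 6555 and 317 fragments, a ratio of 29.9 (26.7 to 33.6), in an interval beside the centromere of chromosome 4, where repeats make read placement uncertain.

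Developmental transcription factors, the classical Polycomb targets, split in both directions. Of the 302 genes written in this list, 31 had a vehicle promoter peak. Without the share over all genes, such counts, here and for the lists below, show neither enrichment nor depletion. With GSK-126, 5 of 27 measured intervals were called higher (18.5%, against 5.88% of all promoter intervals) and 7 lower (25.9%, against 38.3%), with a median log2 ratio of -0.60 beside -0.77. SOX3, a factor of neural progenitors, held 591 fragments with GSK-126, 87 with fenretinide, 383 with the combination and 84 with vehicle, a GSK-126 ratio of 7.46 (5.93 to 9.49). The zinc-finger factor gene ZIC4 was also higher (4.08), as were IRX1 (2.43) and DMRT2 (2.29). On the other side HOXD13, a limb patterning gene, held 44, 136, 77 and 225 fragments in the same order of libraries, a ratio of 0.207, and its neighbour HOXD11 held 18, 49, 24 and 94, a ratio of 0.203. DLX4, LHX2, NKX6-3 and NKX2-4 were lower too, with ratios of 0.245, 0.274, 0.285 and 0.378. None of the 27 was called higher with fenretinide (0.317% of all promoter intervals were). Called lower were 2, HOXD11 (0.472) and NKX2-4 (0.463), which is 7.41% and near the 7.03% of all promoter intervals.

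Of 240 written genes of neuronal channels, receptors and synapses, 54 had a vehicle promoter peak. With GSK-126, 20 of 50 measured intervals were called lower (40%, against 38.3% of all promoter intervals) and 7 higher (14%, against 5.88%), with a median log2 ratio of -0.81 beside the -0.77 of all promoter intervals, so the share of falls and the median were near those of promoters at large. Among the lower ones was DRD3, a dopamine receptor, with 5, 29, 7 and 44 fragments in the GSK-126, fenretinide, combination and vehicle libraries and a ratio of 0.121. The nicotinic receptor subunit gene CHRND held 47, 115, 51 and 262, a ratio of 0.19. KCNN3 held 3, 21, 7 and 32, a ratio of 0.0994, while its relative KCNN2 was higher (above). CHRM3, a muscarinic receptor, held 326, 104, 224 and 77, a ratio of 4.49, and the potassium channel gene KCNJ3 held 313, 130, 265 and 102, a ratio of 3.25. The potassium channel gene KCNJ12 held 20, 34, 10 and 97, a ratio of 0.219, so potassium channel genes were called in both directions.

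Cytokine, chemokine and TNF family genes, with their interleukin receptors, had no member called higher against vehicle in any treated library. With GSK-126, 11 of 17 measured intervals were lower (64.7%, against 38.3% of all promoter intervals), with a median log2 ratio of -1.23. With the combination 9 of 17 were lower (52.9%, against 32.1%), and with fenretinide 1 of 17 (5.88%, against 7.03%). TNFSF14, which encodes the T-cell ligand LIGHT, held 27 fragments with GSK-126, 113 with fenretinide, 25 with the combination and 140 with vehicle, a GSK-126 ratio of 0.205 (0.13 to 0.31). The chemokine gene CX3CL1 held 57, 186, 55 and 222, a ratio of 0.272, and IL26 held 18, 60, 20 and 71, a ratio of 0.269. TNFSF11, the ligand of osteoclast differentiation, lay at the other end with 553, 502, 507 and 462, a ratio of 1.27. With 17 intervals the difference from other promoters rests on few genes.

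The retinoid pathway had 9 of 42 written genes, all measured with GSK-126. Of these, 5 were called lower (55.6%, against 38.3% of all promoter intervals) and none higher (against 5.88%). The median log2 ratio was -1.06, and with 9 intervals this rests on few genes. RARB, over 4.16 kb, held 15 fragments in the GSK-126 library, 28 in the fenretinide library, 22 in the combination library and 48 in the vehicle library. The vehicle library was the highest, and the ratios to it were 0.331 (0.172 to 0.602) for GSK-126, 0.528 (0.319 to 0.859) for fenretinide and 0.497 (0.285 to 0.839) for the combination. The fenretinide ratio missed the 2-fold rule although its counting interval excluded 1. CRABP1, which binds retinoic acid in the cytoplasm, held 92, 316, 132 and 363 fragments, a GSK-126 ratio of 0.269. STRA6, the cell-surface receptor for retinol-binding protein, held 8, 18, 5 and 33, with ratios of 0.257 for GSK-126 and 0.494 for fenretinide. TTR, the transport partner of retinol-binding protein, held 5, 7, 8 and 18, with ratios of 0.295 and 0.352. The retinoid X receptor gene RXRG was lower with GSK-126 (0.478), while ALDH1A2, which makes retinoic acid, RBP4, DHRS9 and RDH16 were not called, with ratios from 0.507 to 0.839. CYP26A1, which breaks retinoic acid down, had no vehicle promoter peak.

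Olfactory receptor genes were seldom called lower with GSK-126: 3 of 46 measured intervals were (6.52%, against 38.3% of all promoter intervals). Called higher were 4 (8.7%, against 5.88%), and the median log2 ratio was -0.19. MicroRNA genes had 20 of 57 lower (35.1%) and 2 higher (3.51%), and long non-coding RNA genes 22 of 62 (35.5%) and 2 (3.23%). Solute carrier genes had 11 of 43 (25.6%) and 2 (4.65%). Near the imprinted IGF2 gene, IGF2-AS held 123, 328, 136 and 766 fragments in the GSK-126, fenretinide, combination and vehicle libraries, a GSK-126 ratio of 0.17 (0.14 to 0.206). Of secreted signals, 5 of 18 intervals were lower (27.8%), among them WNT3 (0.36) and the Notch ligand gene JAG2 (0.282). FGF12 was higher at 1 of its intervals (3.62), the only 1 called higher in the list (5.56%). Matrix and ADAM protease genes had 4 of 11 lower (36.4%), collagen genes 3 of 7 (42.9%) and GPR and ADGR receptor genes 4 of 7 (57.1%). Claudin and connexin genes had 2 of 5 (40%) and keratin genes 1 of 4 (25%). None was higher in these lists. All promoter intervals had 38.3% lower and 5.88% higher, and lists of so few intervals cannot be set apart from them.

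Of 38 urothelial and luminal genes, 6 had a vehicle promoter peak; GRHL3, a factor of the urothelial barrier, held 16, 54, 9 and 84 fragments in the GSK-126, fenretinide, combination and vehicle libraries, a GSK-126 ratio of 0.202. CDH1, which encodes E-cadherin, held 15, 33, 20 and 32, a ratio of 0.497. Of 34 mesenchymal genes 6 had a peak, and COL1A1 was lower (0.129) and the cadherin gene CDH11 higher (2.42). Basal genes had 2 of 40, and blood and endothelial genes 7 of 71 with 3 of 5 measured lower (60%, against 38.3% of all promoter intervals). Antigen presentation and interferon genes had 2 of 81 with neither called, and cell cycle inhibitors and tumour suppressors 5 of 51. CDKN1A, the p21 gene, held 3, 12, 2 and 10 fragments, too few for a ratio to vehicle with GSK-126. Apoptosis and unfolded protein response genes had 2 of 59, Polycomb and partner genes 1 of 43, ASXL3, which was higher with GSK-126 (2.07), and housekeeping and clustered histone genes none. The 2 clustered protocadherin intervals were not called. EZH2, GATA3, FOXA1, PPARG, KRT5 and CDKN2A had no vehicle promoter peak.

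**Figure D4:**
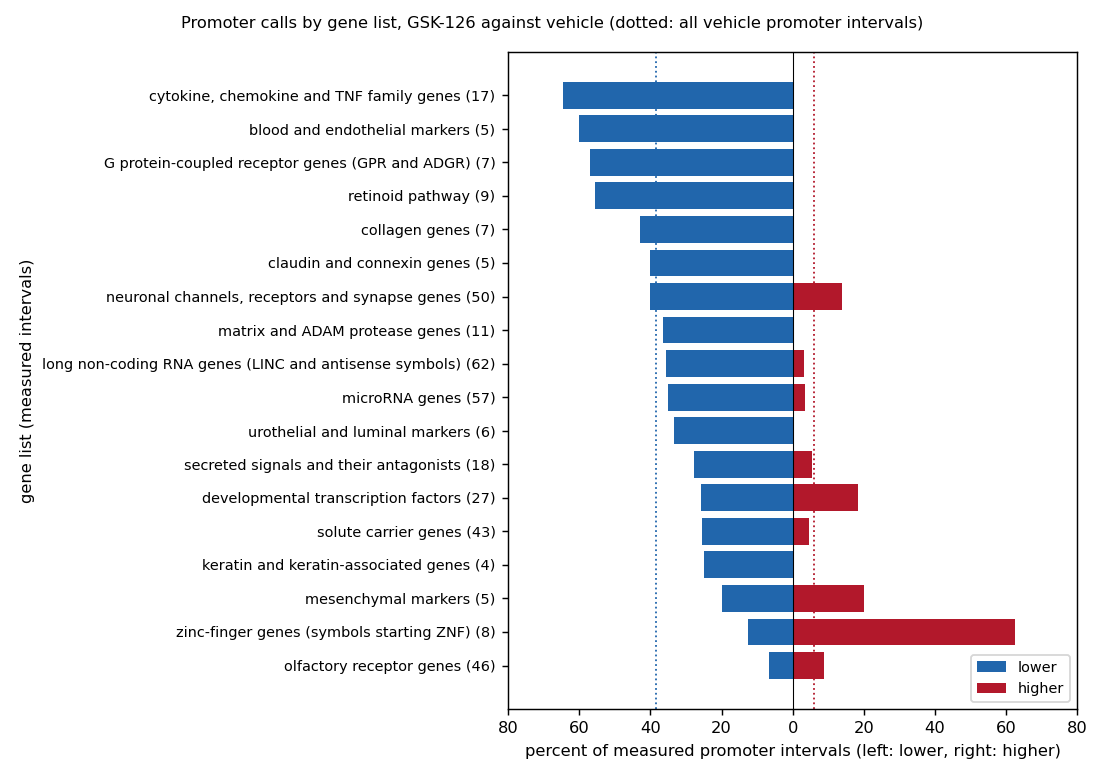
Percent of measured promoter intervals called lower (blue, to the left) and higher (red, to the right) for GSK-126 against vehicle by gene list, with the number of measured intervals in brackets for lists with at least 4. Dotted lines are all promoter intervals, 38.3% lower and 5.88% higher; cytokine genes lie beyond the first line and zinc-finger genes beyond the second.

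Fenretinide against vehicle asked what the retinoid alone did. Of 1891 measured promoter intervals, 133 (7.03%) were called lower and 6 (0.317%) higher, with a median log2 ratio of -0.18. Over all intervals 2.16% were called lower and 3.31% higher, and among vehicle peaks of other classes 9.28% were lower at exons, 4.86% at transcript ends, 2.92% in introns and 2.39% between genes. No promoter met the rule for a named rise, and the 6 called higher (LOC101927209, LOC102467225, GMCL1P1, DEFB110, the shared interval of MIR5681A and MIR5681B, and ASB9, named after their values were seen) had ratios of 2.11 to 2.44. By the counting bound nearest to 1, the deepest falls after PDE4A included KCNJ12, an inward rectifier potassium channel gene with near-identical copies, at 20 fragments with GSK-126, 34 with fenretinide, 10 with the combination and 97 with vehicle, and a fenretinide ratio of 0.317 (0.208 to 0.473). ADORA2A, an adenosine receptor gene, held 18, 31, 9 and 74, a fenretinide ratio of 0.379 (0.241 to 0.584). ADAM11 held 16, 36, 23 and 84, a ratio of 0.388, and GSE1 held 25, 66, 27 and 141, a ratio of 0.424. At COX8C, a testis form of a cytochrome oxidase subunit, the fenretinide library was the lowest, with 55, 36, 60 and 85 fragments and a ratio of 0.383 (0.252 to 0.572). SYT15, which has a near-identical copy, and LOC101929340 completed the 8 named falls, with ratios of 0.309 and 0.342.

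The fenretinide ratio to vehicle varied with the CG content of the promoter, while the GSK-126 medians had no such order. Of the members, 1105 had a RefSeq window of their gene within 2000 bases, and their windows were CG-poorer than the genome's, with a median of 9 CG against 14 over all windows. Windows with 0 to 8, 9 to 24 and 25 or more CG had median log2 ratios with fenretinide of -0.09, -0.29 and -0.38, and with GSK-126 of -0.81, -0.82 and -0.76. The fenretinide order was the same in intervals up to 5 kb, at -0.26, -0.45 and -0.67, and in wider ones, at -0.05, -0.24 and -0.29. The share called lower with fenretinide was 4.68%, 10% and 11.2%. These values all use the 1 vehicle library. In the combination against GSK-126, which does not use it, the medians were 0.0997, 0.031 and -0.0249. In intervals up to 5 kb they were 0.146, -0.0827 and -0.0293, without a steady order. CG content moved with GC content, whose medians were 46.3%, 61.7% and 73%, and with peak width, at 1.72, 2.69 and 3.23 kb. CG and GC content cannot be told apart here, and the part of either in the order was not tested.

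**Figure D5:**
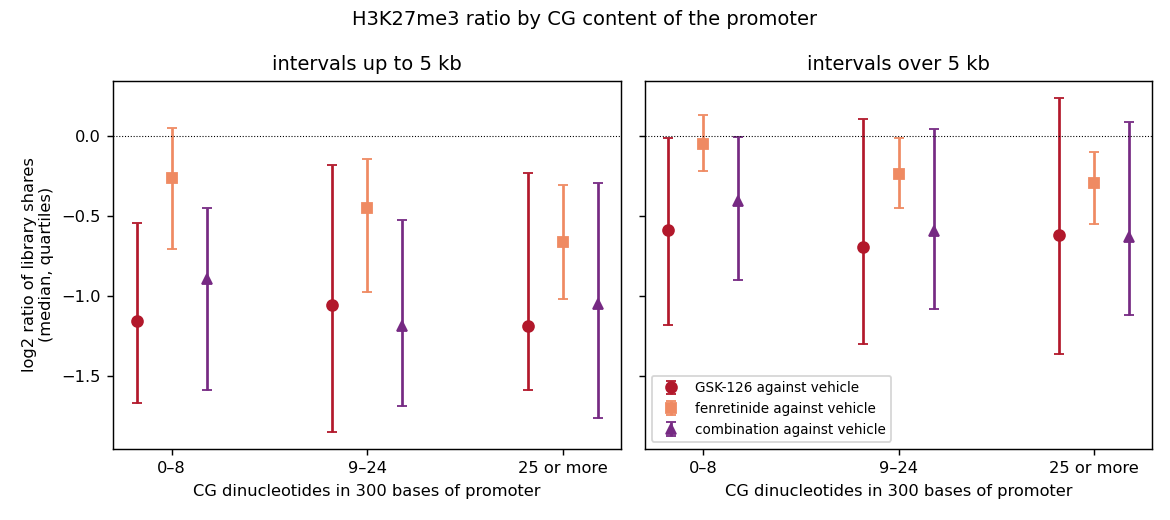
Log2 ratio of library shares against vehicle (median as a point, quartiles as bars, over intervals) for promoters with 0 to 8, 9 to 24 and 25 or more CG dinucleotides in 300 bases, in intervals up to 5 kb (left) and over 5 kb (right). The fenretinide medians step down with CG content, from -0.26 to -0.67 on the left, while the GSK-126 medians show no such order.

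The combination asked whether fenretinide changed what GSK-126 did at these promoters. Against vehicle, 581 of 1809 measured intervals (32.1%) were called lower and 75 (4.15%) higher, with a median log2 ratio of -0.66; over all intervals 15.8% were lower and 24.1% higher. The combination library lay close to the GSK-126 library: of 1597 measured intervals 1.13% were lower and 1.31% higher in the combination than in GSK-126, with a median log2 ratio of 0.05, against 1.82% and 2.48% over all intervals. That median was -0.08 and -0.06 with the 2 count-based scalings, so its direction depends on the scaling. Against fenretinide, 328 of 1733 (18.9%) were lower and 95 (5.48%) higher, with a median of -0.45, and over all intervals 12.1% and 18.6%. ELN, the elastin gene, held 40 fragments with GSK-126, 101 with fenretinide, 22 with the combination and 150 with vehicle. Its ratio of 0.159 (0.0967 to 0.25) for the combination stood beside 0.283 for GSK-126. Higher with the combination than with GSK-126 were PMCHL2 (3.81), BMP6 (3.58) and LINC00864 (3.47); BMP6, a growth factor gene named after its values were seen, held 6, 25, 21 and 21 fragments.

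The effect of GSK-126 can be set out without and with fenretinide from pairs that share no library, GSK-126 against vehicle and combination against fenretinide. Both were measured in 1707 promoter intervals. The first called 629 of them lower and the second 318, and 257 were called lower in both (40.9% of the first and 80.8% of the second, against 40.2% and 71.8% over all intervals). Of 106 and 95 called higher, 69 were shared (65.1% and 72.6%, against 63.3% and 87.3% over all intervals), and none was called in opposite directions. The ratio of the ratios had a median log2 of 0.23, with 132 intervals (7.73%) at least 2-fold less reduced or more raised in the presence of fenretinide and 17 (0.996%) the other way, against 4.11% and 4.97% over all intervals. The vehicle count enters this value, so choosing on the vehicle library can raise it, and the size of that part was not tested. The median was 0.37 for exon, 0.31 for transcript-end, 0.12 for intron and 0.05 for intergenic vehicle peaks, and -0.05 over all intervals. For fenretinide without and with GSK-126, 67 and 17 of 1590 promoter intervals were called lower, and 2 were shared (2.99% of the first and 11.8% of the second, against 2.87% and 3.08% over all intervals).

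The lowest medians were on the gene-dense chromosomes 22, 19 and 17. The median log2 ratio with GSK-126 was -1.45 on chromosome 22, where 29 of 42 measured intervals were called lower, -1.22 on chromosome 19 (41 of 75) and -1.2 on chromosome 17 (33 of 59). It was -0.37 on chromosome X (25 of 83) and -0.42 on chromosome 5 (30 of 95). Protein-coding promoters were lower in 41.8% of 1240 measured intervals, long non-coding RNA promoters in 32.9% of 173 and microRNA promoters in 34.5% of 55. No test of the differences between chromosomes or biotypes was made, and intervals on 1 chromosome share a library.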

How the data were processed

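Raw fragment counts over 273664 consensus intervals, as deposited by the authors, came from featureCounts 2.0.1, per the file headers, run without strand, with a minimum overlap fraction of 0.2 and with a fragment counted in every interval it overlaps. They also deposited a broad peak list per library with a peak score of unstated scale (minimum 10), the HOMER annotation class and the distance from peak centre to start site in bases. Peaks were called with MACS2 2.1.0 on the GRCh38 (hg38) build, as the submitters' processing notes list, and library by library, per the file headers; the aligner and the control used for calling were not given in the sources used here. Coordinates are 1-based.

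Vehicle peaks annotated as promoter were joined to the intervals that overlap them, and 7 on other sequences were left out. Intervals without a promoter peak were given the class that took most of their vehicle peak length. Ratios are ratios of library shares of interval fragments, with 95% exact Clopper-Pearson intervals; log2 ratios used a pseudocount of 0.5. Counting intervals cover counting error only. Precision follows depth, which was 15812933 to 18928836 fragments per library.

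Named genes were, for each treated library against vehicle, the 8 largest rises and 8 largest falls in intervals up to 10 kb with at least 100 fragments, ranked by the counting bound nearest to 1, with the 8 densest and 5 widest vehicle intervals, up to 2 members at either end of each list with at least 50 fragments, and 9 genes whatever their values. Further list members are given in the text, some with fewer fragments. The members and lists were chosen with earlier results of these data known. Of the 2097 gene symbols, 1761 matched RefSeq. Alternatives were DESeq2 1.42.0 and edgeR 4.0.16 scaling factors (no test of theirs was run), background scaling, other count, ratio, score, cover, width and overlap limits, and other peak lists. Software was R 4.3.3 and Python 3.11.15 with scipy 1.17.1, pandas 2.3.3, matplotlib 3.10.9 and numpy 2.4.6.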

Additional observations from a re-analysis of the deposited data

Results flagged for a closer look

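HELT, a transcription factor gene, was called in opposite directions by the pairs that show fenretinide without and with GSK-126. Its promoter interval of 3.72 kb held 14 fragments in the GSK-126 library, 14 in the fenretinide library, 32 in the combination library and 26 in the vehicle library. The ratio was 0.487 (0.235 to 0.968) for fenretinide against vehicle and 2.34 (1.21 to 4.74) for the combination against GSK-126. Each condition had 1 library, the counts are small and the difference was not tested.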

How the results depend on the processing

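Each condition had 1 library, so leaving out a replicate was not possible. No paired analysis was possible because each group had 1 library and no test was run. Values below are percents of measured promoter intervals. Median log2 ratios kept their sign under all alternatives, except for the combination against GSK-126, which was -0.0782 with DESeq2 and -0.0609 with edgeR TMM factors (0.0498 with library totals). Small shares move by over 1.5 times on few intervals.

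With background scaling, lower and higher calls were 68.4% and 1.98% for GSK-126, 69.9% and 0.829% for the combination against vehicle, and 55.7% and 1.38% for the combination against fenretinide; fenretinide had 0.106% higher, as with DESeq2 and TMM factors. The combination against GSK-126 had 0.814% higher with DESeq2 factors.

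In intervals up to 5 kb, fenretinide had 15.3% lower and 0.661% higher, GSK-126 1.90% higher, and the combination 0.593% higher against vehicle, 3.34% against fenretinide, and 3.25% higher and 3.90% lower against GSK-126. Where promoter peaks cover at least 50% of the interval, lower and higher calls were 57.9% and 0.866% for GSK-126, 13.2% and 0.202% for fenretinide, and 51.8% and 0.435% for the combination; against fenretinide the combination had 1.91% higher and against GSK-126 0.695% lower.

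With a peak score of at least 20, higher calls were 3.74% for GSK-126, 0.0920% for fenretinide, 2.63% for the combination against vehicle and 3.07% against fenretinide. With promoter peaks of any of the 4 lists, higher calls were 8.85% for GSK-126, 0.734% for fenretinide (4.02% lower) and 7.18% for the combination. With the treated library's own list they were 10.8% for GSK-126, 0.927% for fenretinide (3.19% lower), 8.21% for the combination and 8.54% for the combination against fenretinide.

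With a minimum of 50 fragments, fenretinide had 4.15% lower and 0.201% higher, and the combination against GSK-126 0.486% and 0.648%. At a ratio of 1.5, higher calls were 10.7% for GSK-126, 1.27% for fenretinide (14.6% lower), 8.62% for the combination, 9.35% against fenretinide (35.6% lower) and 3.63% against GSK-126 (2.88% lower).

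Overlap of at least 50% of the vehicle peak left 32.3% of promoter peaks shared with the GSK-126 list, 56.2% with the fenretinide list and 41.3% with the combination list; at a vehicle score of at least 20, 69.0%, 91.5% and 79.2% were shared. The cause of these differences was not tested. At this depth, narrow intervals often fell below the count minimum and were left uncalled.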
